A study of Mus musculus with 2 samples.

Results

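CXC chemokines are small secreted proteins, named for a pair of cysteines parted by a single residue, that attract leukocytes to a tissue. This account covers the mRNAs of 10 CXC chemokine genes, Cxcl1, Cxcl2, Cxcl3, Cxcl5, Cxcl10, Cxcl12, Cxcl14, Cxcl15, Cxcl16 and Cxcl17, chosen by symbol from the 25668 genes listed in 2 RNA-seq libraries of mouse fallopian tube epithelial organoids. All 10 symbols were listed in both libraries. The first library was made from Trp53 KO organoids, in which the gene of the tumour suppressor p53 had been knocked out. The second, the control, was made from WT organoids of normal fallopian tube epithelium, taken from a mouse of a Gt(ROSA)26Sor line with a Cas9-EGFP transgene. Both libraries had the treatment label Conditioned medium, so the medium was not compared. The labels state neither the age of the animals, nor the number of animals or clones behind each library, nor whether both lines came from the same mouse. The comparison asks how loss of Trp53 function goes together with the levels of these ligands in the epithelium, and with 1 library in each group no difference has a replicate check, a p-value or an SD.

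Chemokines with the residues glutamate, leucine and arginine just before the first cysteine (the ELR motif) signal through the receptor Cxcr2 and draw neutrophils, and epithelia make them when NF-kB is active after infection or injury. Chemokines without that motif serve other cells. Cxcl10 is induced by interferon and attracts T cells through Cxcr3, Cxcl12 is made mainly by stroma and binds Cxcr4 and Ackr3, Cxcl14 and Cxcl17 are made by epithelia and mucosal surfaces, and Cxcl16 is a transmembrane ligand of Cxcr6.

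The motif was looked up in the coding sequences, because it divides the genes by the cells they attract. The longest protein-coding transcript of each gene in GENCODE M21 (mouse, GRCm38) was read in frame to its first pair of cysteine codons parted by a single codon. The opening codons of each coding sequence were left out of that search. Each sequence below runs from 6 codons before the first cysteine codon to 3 after the second, on the coding strand, and capitals mark both cysteine codons and, where present, the ELR codons. Ppbp, a neighbouring gene for another Cxcr2 ligand, is included.
Cxcl1: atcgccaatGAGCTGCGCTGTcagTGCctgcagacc
Cxcl2: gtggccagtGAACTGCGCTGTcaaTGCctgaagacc
Cxcl3: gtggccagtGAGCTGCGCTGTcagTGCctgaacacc
Cxcl5: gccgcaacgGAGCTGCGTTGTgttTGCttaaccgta
Cxcl15: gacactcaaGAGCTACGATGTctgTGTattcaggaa
Ppbp: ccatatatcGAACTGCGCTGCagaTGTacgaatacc
Cxcl10: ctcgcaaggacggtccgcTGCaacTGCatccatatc
Cxcl12: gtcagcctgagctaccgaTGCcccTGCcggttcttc
Cxcl14: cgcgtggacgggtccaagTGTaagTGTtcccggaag
Cxcl16: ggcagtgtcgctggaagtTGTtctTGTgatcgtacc
Cxcl17: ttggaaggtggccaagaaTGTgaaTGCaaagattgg
Cxcl1, Cxcl2, Cxcl3, Cxcl5, Cxcl15 and Ppbp held the ELR codons, and Cxcl10, Cxcl12, Cxcl14, Cxcl16 and Cxcl17 did not.

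Trp53 was at 2.42 TPM in the Trp53 KO library, against 83.2 TPM in the control library, in the direction its label gives. TPM corrects the reads of a gene for its length and brings every library to 1 common sum, so TPM values of different genes can be compared within a library. The libraries held an estimated 27672185 reads (Trp53 KO) and 100032850 reads (control), as recovered from the TPM values.

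Differences were taken as log2(TPM + 1) in the Trp53 KO minus the control library. Genes averaging at least 1 TPM over both libraries entered, and those are called measured. A gene is called higher or lower here where that difference amounts to 2-fold or more, and the pseudocount understates the change of low genes. Over all 11228 measured genes 8.35% were higher and 15.3% lower, and the marker counts that follow stand beside those shares. All 10 markers of epithelium were measured, with 2 higher and 0 lower, and summed to 15551 TPM in the Trp53 KO and 10232 TPM in the control library. Krt19, a keratin of simple epithelium, was 8176 TPM in the Trp53 KO and 2313 TPM in the control library, and without it the other 9 markers summed to 7375 TPM in the Trp53 KO and 7919 TPM in the control library. Krt18, another such keratin, was 2317 TPM in the Trp53 KO and 3144 TPM in the control library, a difference of −0.44. Krt8 (−0.35), Cdh1 (−0.19) and Epcam (−0.03) also had differences below 0, all short of 2-fold. Epcam ranged from −0.19 to 0.11 under the scalings tried, so it has no set direction. Cldn3 (1.07) was the other higher gene, and Cldn7 (0.47), Krt7 (0.41), Cldn4 (0.34) and Pax8 (0.04) had differences above 0, short of 2-fold. All 10 fibroblast markers and all 8 endothelial markers were below the expression filter. The fibroblast markers summed to 0.0172 TPM in the Trp53 KO and 0.119 TPM in the control library, with Col1a2 and Thy1 at 0 in both. The endothelial markers summed to 0.0922 TPM in the Trp53 KO and 0.188 TPM in the control library, with Cldn5, Emcn and Tek at 0 in both. Of 12 myeloid markers 7 were measured, 3 higher and 3 lower, with a sum of 234 TPM in the Trp53 KO and 885 TPM in the control library. Within that sum Cd14, which epithelia also make, was 177 TPM in the Trp53 KO and 588 TPM in the control library, and Lyz2 was listed at 0 in the Trp53 KO and at 257 TPM in the control library. S100a9, abundant in neutrophils, was 19.9 TPM in the Trp53 KO and 2.83 TPM in the control library. Ptprc, a surface protein of leukocytes, was 0.0110 TPM in the Trp53 KO and 0.0886 TPM in the control library. Of 9 lymphoid markers 7 were at 0 in both libraries, and Cd79b alone was measured, at 18.6 TPM in the Trp53 KO and 33.6 TPM in the control library. The part of other cells in the chemokine values was not tested. Fewer cells of a type and less RNA per cell cannot be told apart in such bulk libraries.

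Levels ranged widely among the CXC mRNAs in both libraries. Cxcl5 stood at 3617 TPM in the Trp53 KO and 7523 TPM in the control library, the 50th and the 12th highest of all 25668 genes. In the Trp53 KO library Cxcl17, Cxcl16, Cxcl3 and Cxcl1 followed at 108 to 137 TPM. In the control library Cxcl17, Cxcl16 and Cxcl1 followed at 114 to 795 TPM. Cxcl12 and Cxcl10 were lowest of the 10 in the control library, and Cxcl12 and Cxcl15 in the Trp53 KO library. Summed over the 10 genes the level was 4152 TPM in the Trp53 KO and 8618 TPM in the control library, and Cxcl5 made up 87.1% of that sum in the Trp53 KO and 87.3% in the control library.

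**Figure D1:**
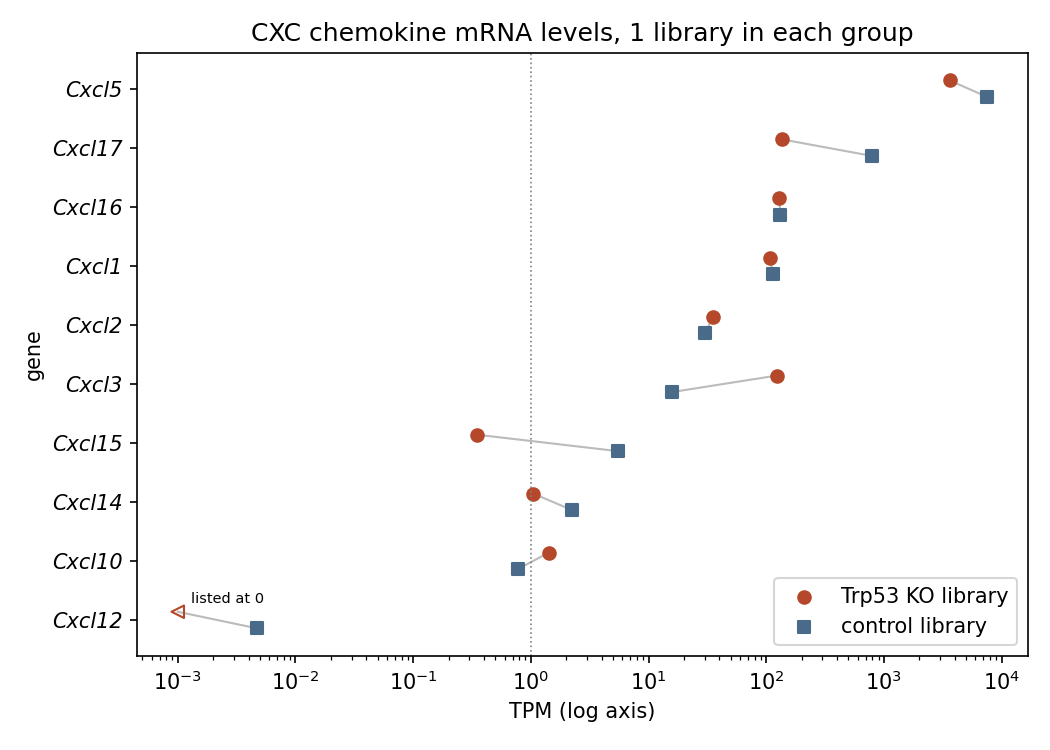
TPM of each CXC chemokine gene on a log axis, with circles for the Trp53 KO library above squares for the control library, 1 library each. The dotted line marks 1 TPM, and Cxcl12, listed at 0 TPM in the Trp53 KO library, is drawn as an open arrow at the left edge. Cxcl3 lies to the right in the Trp53 KO library, Cxcl5, Cxcl15 and Cxcl17 lie to the left, and Cxcl1, Cxcl2 and Cxcl16 nearly coincide.

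Of the 10 genes 9 passed the filter. Cxcl3 was higher, Cxcl5, Cxcl15 and Cxcl17 were lower, and 5 were neither. Over all 11228 genes that passed, 8.35% were higher and 15.3% lower, that is 937 and 1715 genes, beside 1 and 3 of 9 for the chemokines. Quantile normalization of both libraries gave 1292 higher against 1321 lower genes and the same calls for the chemokines. Without that normalization, the median difference of the 9 chemokine genes was −0.09, against −0.17 over all genes. At 4-fold, Cxcl3 was higher and Cxcl15 and Cxcl17 lower, beside 2.38% higher and 5.89% lower of all genes. Intervals on a TPM ratio are exact Clopper-Pearson intervals at 95% on the recovered reads, and they cover counting error only. Without molecular identifiers, reads do not stand for separate molecules, and a single library shows no spread between cultures.

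The most abundant ELR ligand was lower in the Trp53 KO library. Cxcl5, a ligand of Cxcr2 known in mice as LIX, had a TPM ratio of 0.481 (Trp53 KO over control) with a counting interval of 0.478 to 0.484, from 100774 reads in the Trp53 KO and 705329 reads in the control library. Its difference of −1.06 lay just past the 2-fold line and was −0.91, short of it, after rescaling by the median ratio of all genes. The direction was the same under every setting tried. Even at the lower level, Cxcl5 had 33.6 times the TPM of Cxcl1 in the Trp53 KO library and 65.7 times in the control library. The summed level of the 5 ELR ligands was 3883 TPM in the Trp53 KO and 7689 TPM in the control library, of which Cxcl5 held 93.1% in the Trp53 KO and 97.8% in the control library.

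Cxcl3, another Cxcr2 ligand, went the other way. It was at 123 TPM in the Trp53 KO and 15.7 TPM in the control library, a ratio of 7.80 (counting interval 7.23 to 8.43), from 2202 reads in the Trp53 KO and 950 reads in the control library. The difference was 2.89 and stayed between 2.62 and 3.03 under the other pseudocounts and scalings. Cxcl1, the mouse KC chemokine, was at 108 TPM in the Trp53 KO and 114 TPM in the control library, a ratio of 0.940 (0.892 to 0.991). Cxcl2, the chemokine MIP-2, was at 35.6 TPM in the Trp53 KO and 30.2 TPM in the control library, a ratio of 1.18 (1.10 to 1.26). Neither reached 2-fold, and the difference of Cxcl1, −0.09 as reported, was 0.05 after median-ratio rescaling, so it has no set direction.

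The order of these 3 close relatives therefore differed between the libraries. In the Trp53 KO library Cxcl3 was the highest of them and had 3.44 times the TPM of Cxcl2. In the control library Cxcl3 was the lowest, with 0.521 times the TPM of Cxcl2, and Cxcl1 had 7.29 times the TPM of Cxcl3. Such ratios within a library do not depend on a single scaling factor per library, though quantile normalization can change them. The sum of Cxcl1, Cxcl2 and Cxcl3 was 266 TPM in the Trp53 KO and 160 TPM in the control library. Cxcl3 made up 46.1% of the sum in the Trp53 KO and 9.80% in the control library, and Cxcl1 made up 40.5% in the Trp53 KO and 71.4% in the control library.

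**Figure D2:**
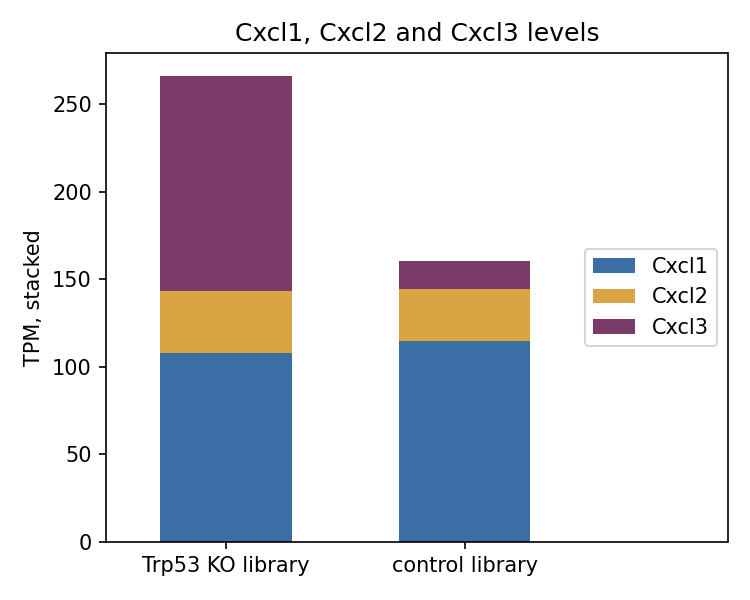
Stacked TPM of Cxcl1, Cxcl2 and Cxcl3 in the Trp53 KO library (left) and the control library (right), 1 library each. The Cxcl1 and Cxcl2 segments are of nearly the same height in both bars, and the Cxcl3 segment is 123 TPM in the Trp53 KO and 15.7 TPM in the control library.

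Cxcl2 and Cxcl3 are near copies, with 87.8% identity between their coding sequences, against 75.7% between Cxcl1 and Cxcl2 and 72.6% between Cxcl1 and Cxcl3. The identity of Cxcl5 with these 3 was 45.6% to 49.0%, over 399 to 402 aligned columns. Gaps counted as differences, and the coding sequence of Cxcl5 is longer, at 132 codons against 96 to 100, which lowers its identity. Because reads of 50 bases could be shared between copies, all 50-base words of the longest coding transcripts were compared with every transcript of other genes. Cxcl2 shared 61 of its 1810 words (3.37%) and Cxcl3 shared the same number of its 967 words (6.31%), in both cases with the other gene. Cxcl1 shared 0 of 904. Reads of Cxcl2 and Cxcl3 from such words are of uncertain origin, depending on how the authors' counting treated them, which no source used here gives. These are shares of exact words, and the share of reads affected was not measured.

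The promoters of Cxcl1, Cxcl2 and Cxcl3 are shown because these 3 genes share a match to the kappa B motif of NF-kB and had different ratios. Promoters were taken from a RefSeq table (GRCm38.p6, an earlier build than the GRCm39 of the deposited values), which held 7 of the 10 genes and not Cxcl5, Cxcl16 or Cxcl17. The 100 bases before the start site are printed on the coding strand, and capitals mark matches, on either strand, to the kappa B motif (GGG, any 2 bases, then TTTCC) or to the TATA box (TATAAA).
Cxcl3 (chr5:90786001-90786100, + strand): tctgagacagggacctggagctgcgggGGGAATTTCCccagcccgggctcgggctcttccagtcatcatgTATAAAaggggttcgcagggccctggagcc
Cxcl1 (chr5:90891145-90891244, + strand): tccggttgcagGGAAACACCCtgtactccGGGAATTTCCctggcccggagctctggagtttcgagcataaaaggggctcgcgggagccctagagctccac
Cxcl2 (chr5:90903799-90903898, + strand): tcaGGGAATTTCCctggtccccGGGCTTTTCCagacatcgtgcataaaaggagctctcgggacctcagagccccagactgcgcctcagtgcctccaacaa
Cxcl15 (chr5:90794434-90794533, + strand): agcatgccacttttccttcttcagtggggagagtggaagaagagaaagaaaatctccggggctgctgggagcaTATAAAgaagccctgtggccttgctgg
The word GGGAATTTCC was present in all 3 of Cxcl3, Cxcl1 and Cxcl2, starting 73, 71 and 97 bases before the start site. Cxcl1 had a further match on the opposite strand and Cxcl2 a further match on the coding strand. Cxcl15, Cxcl10, Cxcl12 and Cxcl14 had no match to this kappa B motif in the window of 250 bases before to 50 after the start. Of all 32851 promoters of that length in the table, 1.63% held the kappa B motif on either strand and 13.6% held TATAAA. A wider form (GGG, any 5 bases, then CC), which overlaps it, was in 5 of the 7 promoters and in 50.8% of all. Those 5 were the promoters of Cxcl1, Cxcl2, Cxcl3, Cxcl10 and Cxcl12.

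The pentamer ATTTA, the core of AU-rich elements that speed the decay of cytokine mRNAs, was counted in the 3′ untranslated regions. Cxcl1 had 7 in 592 bases (11.8 per 1000 bases), Cxcl2 had 11 in 1494 bases (7.36), Cxcl3 had 5 in 645 bases (7.75) and Cxcl5 had 5 in 1111 bases (4.50). Over 10527 measured genes with an untranslated region of at least 100 bases the median was 1.36 per 1000 bases. The density of Cxcl1 was reached by 0.351% of those genes, that of Cxcl3 by 1.65%, that of Cxcl2 by 2.09% and that of Cxcl5 by 8.18%. By number alone, whatever the length, 13.7% of those genes had as many as Cxcl1, 22.5% as Cxcl3, 5.36% as Cxcl2 and 22.5% as Cxcl5. Cxcl10 had 3.01 per 1000 bases, Cxcl16 had 1.41, Cxcl15 had 1.26 and Cxcl12 had 0.771, and Cxcl14 and Cxcl17 had 0. In falling order of density Cxcl1, Cxcl3, Cxcl2 and Cxcl5 had TPM ratios of 0.940, 7.80, 1.18 and 0.481 (Trp53 KO over control).

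Cxcl15, an ELR chemokine first known from lung epithelium of mice, was much lower in the Trp53 KO library. It was at 0.346 TPM in the Trp53 KO and 5.51 TPM in the control library, from 13 reads in the Trp53 KO and 698 reads in the control library. The ratio was 0.0627 with a counting interval of 0.0332 to 0.108. The difference was −2.28, and −0.98 with a pseudocount of 5, where it no longer reached 2-fold.

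**Figure D3:**
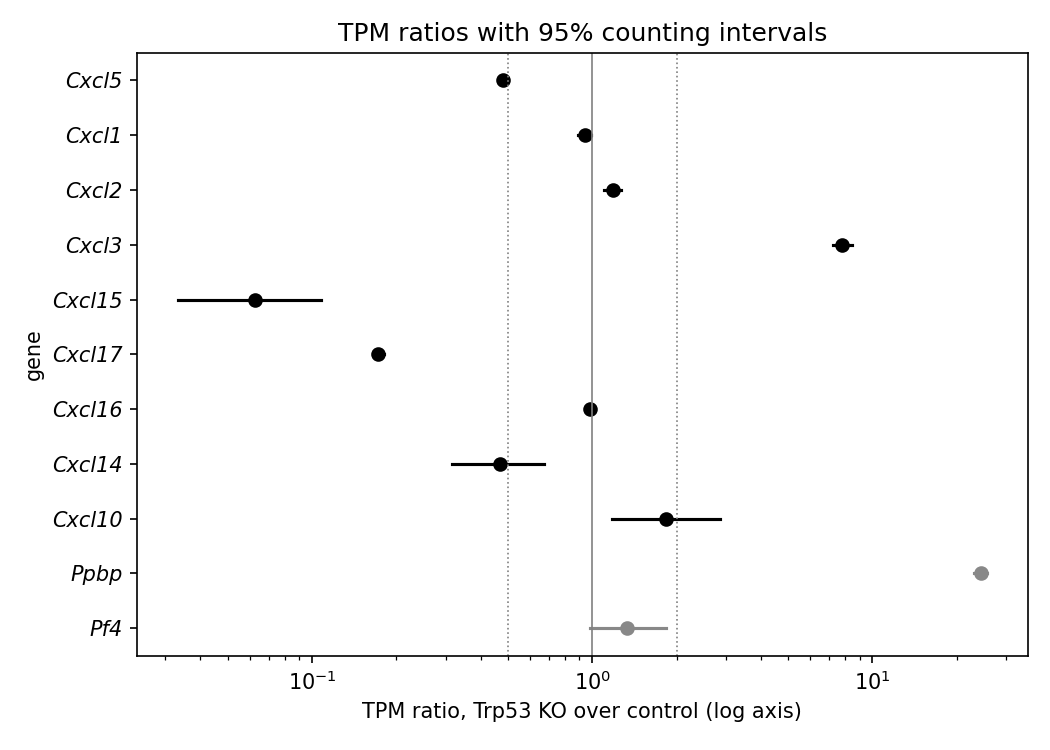
TPM ratio of the Trp53 KO over the control library on a log axis (points) with 95% counting intervals from the recovered or estimated reads (bars), for 9 of the CXC chemokine genes in black and for Ppbp and Pf4 in grey. The solid line marks equal levels and the dotted lines 2-fold. Cxcl3 and Ppbp lie to the right of both dotted lines, Cxcl15 and Cxcl17 to the left, and Cxcl14 (0.467) and Cxcl5 (0.481) just left of the left dotted line.

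Among the ligands without an ELR motif, Cxcl17 was lower in the Trp53 KO library. This mucosal chemokine, known from epithelia of the airway and gut, was at 137 TPM in the Trp53 KO and 795 TPM in the control library. The ratio was 0.173 with a counting interval of 0.165 to 0.181, from 1846 reads in the Trp53 KO and 36004 reads in the control library, and the difference was −2.53. It was the second most abundant of the 10 mRNAs in both libraries.

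Cxcl16, which is shed from the cell surface to attract cells with Cxcr6, was nearly level. It was at 129 TPM in the Trp53 KO and 131 TPM in the control library, a ratio of 0.986 (counting interval 0.958 to 1.01). Its difference was −0.02 as reported and 0.12 after median-ratio rescaling, so no direction can be given. Cxcl17 thus had 1.06 times the TPM of Cxcl16 in the Trp53 KO library and 6.05 times in the control library. Zmynd15 overlaps 18.3% of the exon bases of Cxcl16 on the opposite strand. It was at 0.356 TPM in the Trp53 KO and 0.951 TPM in the control library, far below Cxcl16.

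Cxcl14 and Cxcl10 were near the filter. Cxcl14, a chemokine made by many resting epithelia, was at 1.05 TPM in the Trp53 KO and 2.25 TPM in the control library, from 34 reads in the Trp53 KO and 245 reads in the control library. Its ratio was 0.467 with a counting interval of 0.316 to 0.670. The difference was −0.66, and it reached 2-fold only with a pseudocount of 0.1, at −1.03. Cxcl10 was at 1.41 TPM in the Trp53 KO and 0.774 TPM in the control library, from an estimated 34 reads in the Trp53 KO and 62 reads in the control library. The ratio was 1.83 with a counting interval of 1.18 to 2.85, and the difference of 0.44 was below 2-fold.

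The promoter of Cxcl10 is shown for its match to the interferon-stimulated response element. The 250 bases before the start are printed on the coding strand, and capitals mark a match on either strand to its core (GAAA, any 2 bases, then GAAA), which 3.44% of all promoters in the table held.
Cxcl10 (chr5:92348890-92349139, − strand): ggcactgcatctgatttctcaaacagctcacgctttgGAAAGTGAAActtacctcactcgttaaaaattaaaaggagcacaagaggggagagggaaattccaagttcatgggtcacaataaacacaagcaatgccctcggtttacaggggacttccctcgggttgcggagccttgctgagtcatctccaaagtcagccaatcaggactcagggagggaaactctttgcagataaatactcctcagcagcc
The match starts 213 bases before the start site, and Cxcl14 also held a match, 172 bases before its start. The printed Cxcl10 sequence also holds, in lower case, matches to the wider kappa B form starting 159, 104 and 103 bases before the start. A match to the AP-1 motif (TGA, any base, then TCA), which 7.81% of all promoters held, starts 74 bases before it. The related ligands of Cxcr3, Cxcl9 and Cxcl11, the second of them annotated as a pseudogene in RefSeq, were listed at 0 in both libraries.

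Cxcl12, the stromal ligand of Cxcr4 and Ackr3, was not detectable at this depth. It was listed at 0 in the Trp53 KO library, where a count of 0 allows up to an estimated 0.0301 TPM at 3 reads, and at 0.00469 TPM in the control library, an estimated 2 reads. Both are at or under 3 reads, so no fold is given.

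Another 5 CXC chemokine genes were looked at beside these 10. Ppbp, which encodes the precursor of a Cxcr2 ligand released by platelets, was at 618 TPM in the Trp53 KO and 25.4 TPM in the control library. Its ratio was 24.3 with a counting interval of 23.1 to 25.6, from 11846 reads in the Trp53 KO and 1639 reads in the control library. With Ppbp added to the ELR ligands the sum was 4502 TPM in the Trp53 KO and 7714 TPM in the control library, and Ppbp made up 13.7% of it in the Trp53 KO and 0.330% in the control library. Pf4, platelet factor 4, was at 5.73 TPM in the Trp53 KO and 4.30 TPM in the control library, a ratio of 1.33 (0.981 to 1.83). Cxcl9, Cxcl11 and Cxcl13 were at 0 in both libraries. Of 10 megakaryocyte and platelet markers, a list added after the value of Ppbp was seen, 9 were below the filter, and Gp9, Gp6 and Gp1bb were at 0 in both libraries. Itga2b alone was measured, at 5.21 TPM in the Trp53 KO and 7.27 TPM in the control library.

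The ELR genes lie together on chromosome 5, and neighbours in that row differed in direction. Among the protein-coding genes in RefSeq's order (GRCm38.p6) Rassf6 is followed by Cxcl5, Ppbp, Pf4, Cxcl3, Cxcl15, Cxcl1, Cxcl2 and Mthfd2l. The differences along that row were −1.06 for Cxcl5, 4.55 for Ppbp, 0.35 for Pf4, 2.89 for Cxcl3, −2.28 for Cxcl15, −0.09 for Cxcl1 and 0.23 for Cxcl2. Over the 709 measured genes of chromosome 5 the median difference was −0.20, with 43 higher and 108 lower. Over all 11228 measured genes it was −0.17, with 8.35% higher and 15.3% lower. Of 15 listed genes beside the CXC genes 10 were measured, with 1 higher and 1 lower and a median of −0.01. Areg, a ligand of the EGF receptor, was the higher one, at 7.03 TPM in the Trp53 KO and 0.802 TPM in the control library. Parm1, a mucin-like membrane protein, was the lower one, at 2.20 TPM in the Trp53 KO and 43.6 TPM in the control library. Rassf6, of the Ras association domain family, was 26.6 TPM in the Trp53 KO and 12.9 TPM in the control library, a difference of 0.99 as reported and of up to 1.16, past 2-fold, under the other scalings. Btc, another EGF receptor ligand, was 2.52 TPM in the Trp53 KO and 5.06 TPM in the control library.

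**Figure D4:**
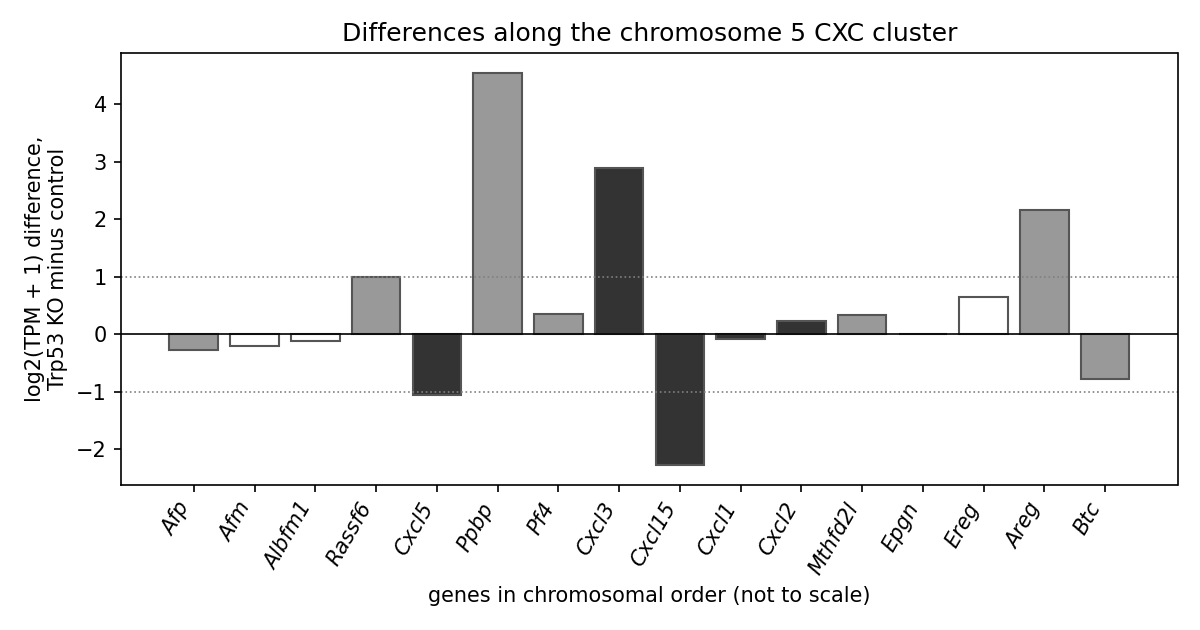
Difference in log2(TPM + 1), Trp53 KO minus control library, for genes in their order along chromosome 5, not to scale. Dark bars are the CXC chemokine genes of this account, grey bars other measured genes and white bars genes with a mean below 1 TPM, and the dotted lines mark 2-fold. Ppbp (4.55) and Cxcl3 (2.89) point up, with Cxcl5 (−1.06) and Cxcl15 (−2.28) pointing down beside them.

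Receptors of these ligands were scarce in the organoids. Of 8 receptor genes, Ackr3, a scavenging receptor of Cxcl12, was the sole gene to pass the filter. It was at 0.0507 TPM in the Trp53 KO, from 3 reads, and 13.2 TPM in the control library, from 2636 reads, a ratio of 0.00383 (counting interval 0.000789 to 0.0112). Cxcr2, the receptor of the ELR ligands, was below the filter at 0.594 TPM in the Trp53 KO and 0.176 TPM in the control library, 32 reads in each. Cxcr4 was listed at 0 in the Trp53 KO and at 0.167 TPM in the control library, and Cxcr6 was at 0 in both.

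Counts of genes that act on the ligand proteins stand beside 8.35% higher and 15.3% lower of all genes. Of 7 proteases that cleave or shed CXC chemokines 5 were measured, 1 higher and 2 lower. Mmp14, a membrane metalloprotease, was the higher one, at 54.5 TPM in the Trp53 KO and 3.36 TPM in the control library. Mmp7, matrilysin, was lower, at 180 TPM in the Trp53 KO and 3149 TPM in the control library, a ratio of 0.0571 (0.0552 to 0.0591) and a difference of −4.12. The other lower gene was Dpp4, a peptidase that trims Cxcl10 and Cxcl12. Dpp4 was 0.0107 TPM in the Trp53 KO, from 1 read, and 7.26 TPM in the control library, a ratio of 0.00148 (3.74e-05 to 0.00824) and a difference of −3.03, so the order of these genes depends on the scale. Adam10, which sheds Cxcl16, was 42.2 TPM in the Trp53 KO and 53.8 TPM in the control library. Of 8 heparan sulfate genes, whose chains hold chemokines at the cell surface, 7 were measured, 2 higher and 1 lower. The core protein gene Sdc1 was 378 TPM in the Trp53 KO and 68.1 TPM in the control library, and Sdc2 was 0.0160 TPM in the Trp53 KO, from 1 read, and 13.7 TPM in the control library.

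Genes of NF-kB, of its upstream signalling and of chemokine mRNA decay are given beside the 8.35% higher and 15.3% lower of all genes. Among 14 NF-kB subunits, inhibitors and feedback genes 2 were lower and 0 higher, and the median difference was −0.27. Nfkbie, an inhibitor, was 5.46 TPM in the Trp53 KO and 12.5 TPM in the control library, and Tnfaip3, the feedback gene A20, was 4.59 TPM in the Trp53 KO and 10.3 TPM in the control library. Under the other scalings the difference came as near to 0 as −0.80 for Nfkbie and −0.76 for Tnfaip3, short of 2-fold. Nfkb1 was 29.6 TPM in the Trp53 KO and 26.2 TPM in the control library, and Nfkb2 was 21.5 TPM in the Trp53 KO and 20.5 TPM in the control library. Receptors and adaptors of IL-1, IL-17, TNF and Toll-like receptor signalling held 2 lower and 0 higher of 14 genes, with a median difference of −0.31. Tlr2 was 1.48 TPM in the Trp53 KO and 5.16 TPM in the control library, with a difference as near to 0 as −0.93 under the other scalings. Il17rc was 56.0 TPM in the Trp53 KO and 37.2 TPM in the control library. Of 8 RNA-binding proteins that set the decay of such mRNAs 1 was lower and 0 higher. The lower gene was Zfp36, tristetraprolin, which binds AU-rich elements, at 91.1 TPM in the Trp53 KO and 241 TPM in the control library, a ratio of 0.377 (0.367 to 0.388). Arid5a, which stabilises inflammatory mRNAs, was 4.49 TPM in the Trp53 KO and 2.02 TPM in the control library, a difference of 0.86 as reported and of up to 1.23, past 2-fold, under the other scalings.

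Interferon receptors, JAK kinases, STATs and IRFs held 4 higher (Irf7, Irf9, Stat2 and Jak1) and 1 lower (Jak2) of 12 genes, beside 8.35% higher and 15.3% lower of all genes, and their median difference was 0.05. Irf7, a factor of the type I interferon response, was 18.0 TPM in the Trp53 KO and 2.47 TPM in the control library, a ratio of 7.27 (6.37 to 8.31). Jak2, a kinase of cytokine receptors, was 17.2 TPM in the Trp53 KO and 56.0 TPM in the control library. Cxcl10, an interferon target, had the smaller ratio of 1.83 given above.

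**Figure D5:**
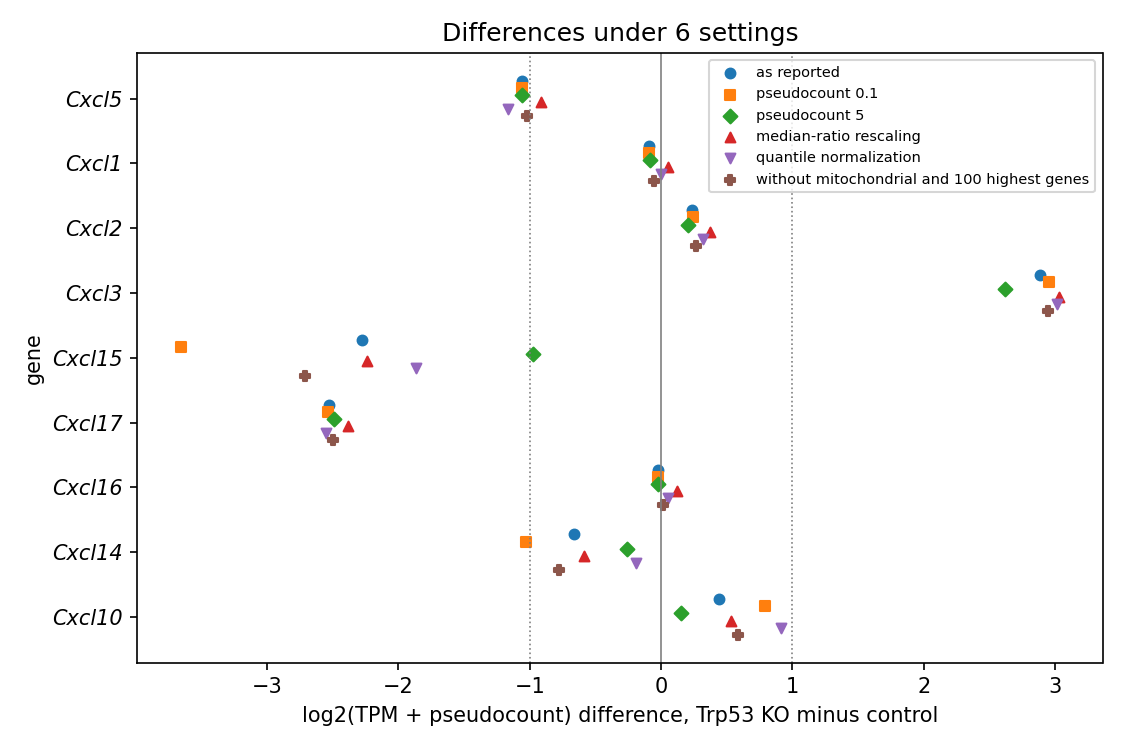
Difference of 9 CXC chemokine genes, Trp53 KO minus control library, on the log2 scale, as reported (circles) and under 5 other settings of pseudocount or scaling, with dotted lines at 2-fold. Cxcl3 and Cxcl17 lie beyond 2-fold under all 6 settings, Cxcl5 lies at the line, Cxcl15 ranges from −3.66 to −0.98, and Cxcl1 and Cxcl16 lie near 0.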

How the data were processed

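Total RNA from organoids was made into strand-preserving libraries (NEBNext Ultra II Directional kit) and sequenced on a NextSeq2000 as paired reads of 50 bases; these steps are per the labels' protocols. The authors deposited TPM per gene symbol for each library. They name GRCm39 as the build, per the submitters' processing notes; no aligner, counting tool, strand setting or annotation is given in the sources used here. Groups follow the genotype labels.

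Read numbers were recovered from TPM × gene length with GENCODE M21 lengths (longest protein-coding transcript, otherwise all exons). With these lengths many values, though not most, were multiples of what 1 read is worth. That worth was 0.0565 TPM (Trp53 KO) or 0.0168 TPM (control) at 1000 bases. Of 10218 genes with over 50 reads in both libraries 30.9% were within 0.02 of a whole number in both, against 0.16% by chance. For 8 of the 10 chemokine genes the numbers were whole, and other read numbers are estimates. Counts of differing genes and the read recovery were checked on simulated reads. Those reads were drawn with the same gene lengths and without variation between cultures, so the check tests neither the lengths nor that variation. Searches for the ELR motif used coding sequences, in place of the planned protein sequences. Sequences and motifs are from RefSeq (GRCm38.p6) and GENCODE M21, with no conversion of coordinates.

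Named genes are the 10 members, Trp53, and from each list the measured gene with the largest difference in each direction (up to 2 for receptors, CXC ligands, NF-kB and neighbouring genes); other genes were named after their values were seen. The members and lists were chosen with earlier results of these data known. The alternatives were pseudocounts of 0.1 and 5, median-ratio and quantile scaling, removal of mitochondrial and the 100 highest genes, no filter or a mean of 5 TPM, and a 4-fold call. Python 3.11.15, pandas 2.3.3, SciPy 1.17.1 and Biopython 1.88 were used.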

Additional observations from a re-analysis of the deposited data

How the results depend on the processing

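No paired analysis was possible because each group has 1 library. The count of chemokine genes that were higher was 1, Cxcl3, under all 8 alternatives. The count that were lower was 3 as reported, 4 with a pseudocount of 0.1, which added Cxcl14, and 2 with a pseudocount of 5, a mean of at least 5 TPM, a 4-fold call or median-ratio rescaling. Cxcl15 was lost with a pseudocount of 5 and by the filter at 5 TPM, and Cxcl5 by the 4-fold call and median-ratio rescaling. No chemokine gene past 2-fold as reported changed direction under these settings. Over all genes, 937 higher and 1715 lower became 563 and 930 with a pseudocount of 5 and 267 and 661 at 4-fold, and a mean of at least 5 TPM left 1091 lower, since fewer genes were tested. The median difference of all genes, −0.17, was −0.04 after median-ratio rescaling, with 1143 higher and 1496 lower genes, and 0.03 after quantile normalization, with 1292 higher and 1321 lower. Low read numbers limit Cxcl12, at or under 3 reads in both libraries. In the Trp53 KO library they also limit Cxcl15 (13 reads), Cxcl14 (34 reads) and Cxcl10 (an estimated 34 reads). The genotype difference has no replicate for any gene.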
